A study of Mus musculus with 12 samples.

Results

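The replication-dependent histone genes, defined here as the rows of the deposited gene table whose symbols follow the clustered histone nomenclature, were examined in mouse bone marrow cells. The symbols matched 69 of 21958 genes, of which 11 encode the linker histone H1 and 17 encode H2A, 17 H2B, 12 H3 and 12 H4. RNA was measured in 12 samples of wild-type mice, 4 in each of 3 groups. Control mice had no treatment, model mice had CTX-induced myelosuppression, and cornus mice were given self-assembled nanoparticles made from Cornus officinalis, a dogwood. The labels give no strain, age, sex, dose or time, and they do not say whether the cornus mice also received CTX. They name biological replicates without saying that each came from its own animal, and a p-value here reflects sample-to-sample spread, which may be technical. The nomenclature also took in linker histone genes that are not replication-dependent, H1f0 and H1f10 among them, and germ cell genes such as H1f6, H1f7, H1f8, H1f9, H2ac1 and H2bc1.

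Core histones H2A, H2B, H3 and H4 form the nucleosome around which DNA is wrapped, and H1 binds the linker DNA between nucleosomes. Most are made in S phase from clustered, intronless genes whose messages end in a conserved stem-loop instead of a poly(A) tail. The stem-loop is bound by the protein Slbp, and cleavage after it requires the U7 small nuclear ribonucleoprotein. In cells that leave the cell cycle, some histone genes are known to give longer, polyadenylated messages, and replacement variants are made outside S phase. Per the labels' protocols, the RNA was selected with poly-T beads before library construction, so the counts come from RNA held by that selection.

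The end of each message was therefore read from the transcript models of GENCODE M21, on GRCm38. A search was made for a stem of 6 perfectly paired bases starting with GG around a loop of 4 bases starting with TT. It found such a stem-loop in 41 of the 69 histone genes (59.4%), against 130 of 21901 protein-coding genes (0.594%). The sites of the tested genes that had one, and of the H2A genes that lie opposite the most counted H2B genes, follow, with 5 flanking bases on each side and the stem-loop in capitals.
H1f2: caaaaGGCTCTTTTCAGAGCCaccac
H1f3: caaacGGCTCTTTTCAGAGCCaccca
H2bc6: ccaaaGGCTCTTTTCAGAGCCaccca
H2bc9: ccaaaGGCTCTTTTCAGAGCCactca
H4c9: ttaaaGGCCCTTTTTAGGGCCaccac
H4c18: ctaaaGGCCCTTTTCAGGGCCatcca
H2ac20: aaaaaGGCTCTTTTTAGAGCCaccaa
H2ac6: ccaaaGGCTCTTTTCAGAGCCcccac
The H1, H2A and H2B sites shown shared 1 stem and the H4 sites another. What differed was how far the longest transcript model ran on after the stem-loop. H4c18 ended 31 bases after it and H2ac20 ended 57 bases after it. By contrast, H4c9 ran on for 330 bases, H1f2 for 840, H2bc9 for 1214, H2bc6 for 1861, H2ac6 for 2010 and H1f3 for 4884. Despite its long model, H2ac6 held only 64 counts over the 12 samples. The models of H1f0, H2bc21 and H2bc4 held no stem-loop of this form. H1f0 and H2bc21 carried the polyadenylation signal AATAAA near their ends, and H1f2 carried it in addition to its stem-loop, as in the next sequences, with the signal in capitals. It was followed by 16 bases in H1f0 and H2bc21 and by 20 in H1f2.
H1f0: aaaactttaaAATAAAactggaaagg
H2bc21: tattattattAATAAAgttaccgatt
H1f2: gtatgcttctAATAAAaagcgtttag

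Read counts differed with where these models end. The 22 histone genes whose model ended within 100 bases of the stem-loop held 525 counts over the 12 samples, with a median of 12.5 and a highest value of 163. The 19 genes whose model ran on for more than 100 bases held 11096 counts, with a median of 64.0, and the 28 with no stem-loop found held 17358, with a median of 15.0. H1f2 held 8768 of the 11096 counts, and H1f0 and H2bc21 held 13853 and 2391 of the 17358. Of those 28, 14 had a longest model that stopped at the stop codon, so no end of the message could be searched. The genes with a short end also had short models, with a median length of 484 bases against 1249 for those that ran on. Per length the classes lay closer together. The median of the mean deposited FPKM was 0.148 for short ends, 0.206 for those that ran on and 0.106 with no stem-loop found. A polyadenylation signal, AATAAA or ATTAAA within the last 40 bases, was present in 5 of the 9 genes that passed the filter on low counts and in 13 of the 60 others. The parts of model length and poly-T selection in these differences were not tested.

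**Figure D1:**
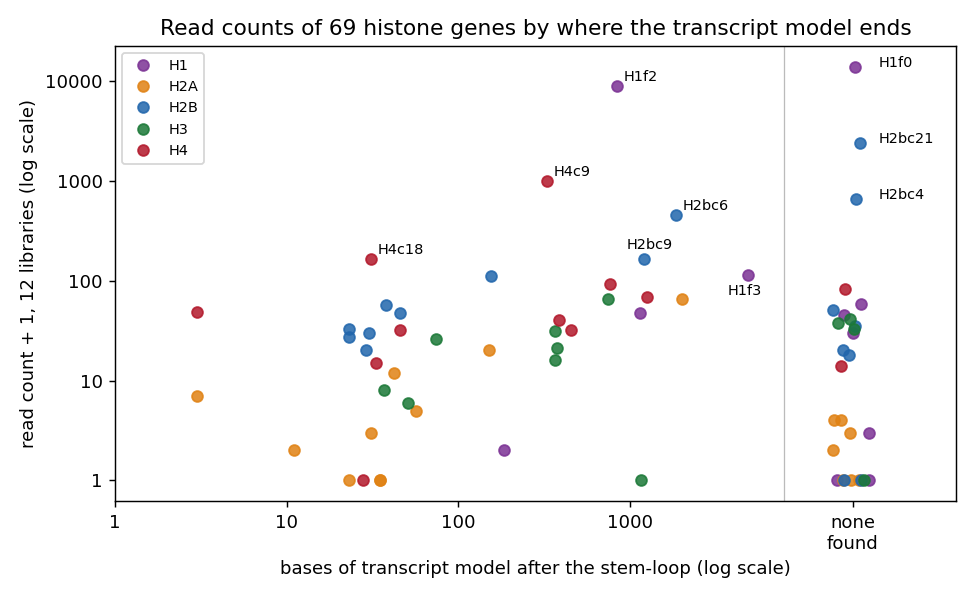
Summed read count plus 1 over 12 samples (vertical, log scale) of each of 69 histone genes against the bases of transcript model that follow its stem-loop (horizontal, log scale), coloured by histone type, with genes lacking a stem-loop at the right. Among genes whose model ends within 100 bases of the stem-loop the highest count is 163, for H4c18, while H1f2 and H4c9 run on further and hold 8768 and 1003 counts.

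Histone messages were a small and uneven part of these libraries. Library totals lay between 13902122 and 19139771 counts, and the 69 genes together held 28979. H1 genes held 22915 of these (79.1%), H2B genes 4090 (14.1%), H4 genes 1582 (5.46%), H3 genes 276 (0.952%) and H2A genes 116 (0.400%). H1f0 alone held 13853 and H1f2 held 8768. Of the 69 genes, 13 had no count in any sample, 25 had fewer than 10 and 10 had 100 or more. The filter on low counts kept 9 genes, namely H1f0, H1f2, H1f3, H2bc4, H2bc6, H2bc9, H2bc21, H4c9 and H4c18, and no H2A or H3 gene. Per length, the mean deposited FPKM over the 12 samples was 35.6 for H1f0, 29.4 for H1f2, 7.38 for H4c9, 4.81 for H2bc21, 3.0 for H2bc4, 2.07 for H4c18, 0.531 for H2bc6, 0.503 for H2bc9 and 0.0804 for H1f3.

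The genes lie mostly in 2 clusters. In the deposited coordinates, whose build is not named and in which none of the 69 genes has its GRCm38 start and end, 54 lie on chromosome 13 between 21899933 and 24118834 and 10 on chromosome 3 between 96127181 and 96177448. The chromosome 13 genes held 12597 counts, 7 of them passing the filter, and the chromosome 3 genes held 2483, nearly all from H2bc21. Near-identical copies limit what can be counted: 28 genes shared most of their 100-base windows with the transcripts of another gene. Among the tested genes the shared part was 80.7% for H4c18, whose values are therefore uncertain, and between 0 and 25.4% for the others.

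Head-to-head H2A and H2B genes, which start back to back from a short shared gap, were counted unequally. There were 12 such pairs with gaps of 175 to 305 bases, and in 11 the H2B gene had more counts than the H2A gene. The other pair, the testis genes H2ac1 and H2bc1, was at 0 on both sides. Over all pairs the H2B genes held 3401 counts and the H2A genes 115. H2ac20 held 4 counts against 2391 for H2bc21 across a gap of 238 bases, and H2ac6 held 64 against 649 for H2bc4 across 250 bases. The deposited lengths differ, at 520 bases for H2ac20 against 2620 for H2bc21 and 2482 for H2ac6 against 1156 for H2bc4. Per length, the mean deposited FPKM was 0.0421 against 4.81 and 0.13 against 3.0 in the same order. Shared sequence bears on these counts: 7 of the 12 H2A genes and 5 of the 12 H2B genes of the pairs shared most of their windows with other genes, with ranges of 8.06% to 92.7% and 0% to 94.8%. H2ac20 shared 16.9% and H2ac6 shared 8.06%. The parts of shared sequence, gene length and poly-T selection in the pair differences were not tested.

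**Figure D2:**
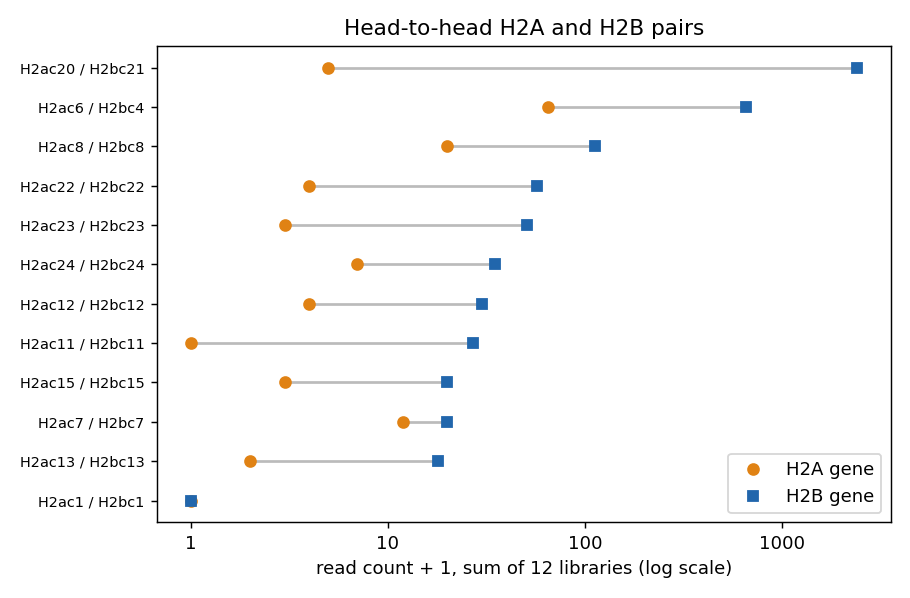
Summed read count plus 1 over 12 samples (horizontal, log scale) of the H2A gene (orange circle) and the H2B gene (blue square) of 12 head-to-head pairs. The H2B gene lies to the right in 11 pairs, and H2ac1 and H2bc1 are both at 0.

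The promoter windows of these genes, 250 bases before to 50 after the start in RefSeq's table for GRCm38.p6, were searched on both strands for 3 motifs. A window was available for 62 of the 69 genes. CCAAT was present in 51 windows (82.3%), against 41.1% of 27025 genes, TATAAA in 34 (54.8%), against 15.7%, and the octamer ATTTGCAT in 13 (21%), against 1.97%. The octamer occurred in 6 of 17 H2A and 7 of 14 H2B windows, and in no H1, H3 or H4 window. CCAAT occurred in all 17 H2A, 14 H2B and 10 H3 windows and in 3 of 11 H4 windows. The windows of a head-to-head pair can overlap, so 1 match can count for both the H2A and the H2B gene. The first window below, at chr3:96220831-96221130 on the minus strand, spans the gap between H2ac20 and H2bc21. The second, at chr13:23585921-23586220 on the minus strand, belongs to 1 of the 2 H2bc6 starts in the table and is shown because it holds an octamer. Capitals mark the octamer, CCAAT and TATAAA, on either strand, and a match is a description of letters and not of binding.
H2ac20: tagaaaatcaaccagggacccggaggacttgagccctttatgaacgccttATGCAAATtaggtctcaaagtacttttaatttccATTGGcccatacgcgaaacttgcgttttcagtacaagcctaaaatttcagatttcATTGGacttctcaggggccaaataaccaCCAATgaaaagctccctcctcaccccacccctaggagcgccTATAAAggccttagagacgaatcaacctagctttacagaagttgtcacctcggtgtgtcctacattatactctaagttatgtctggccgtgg
H2bc6: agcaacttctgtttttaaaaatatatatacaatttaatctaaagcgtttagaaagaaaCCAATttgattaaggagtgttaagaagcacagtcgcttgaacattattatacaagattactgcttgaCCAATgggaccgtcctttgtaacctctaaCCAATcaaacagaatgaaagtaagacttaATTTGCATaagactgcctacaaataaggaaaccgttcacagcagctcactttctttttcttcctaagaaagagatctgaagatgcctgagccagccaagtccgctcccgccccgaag
The H2ac20 window held an octamer 200 bases before the start, 3 CCAAT matches and a TATAAA 42 bases before it, and the printed H2bc6 window held an octamer 67 bases before the start and 3 CCAAT matches. The window of the other H2bc6 start, at chr13:23621045-23621344, held 3 CCAAT matches and no octamer. The 2391 counts of H2bc21 and the 4 of H2ac20 thus stand on either side of 1 set of matches.

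The samples carried differences that bear on the histone values. Controls 1 to 3 were closer to each other than other samples of a group, with a chi-square per degree of freedom over genes of 1.71 to 1.93 in their 3 pairs, against 13.6 to 160 in the 15 other pairs within groups. Each comparison with control was therefore fitted as deposited and again with controls 1 to 3 summed to 1 sample, and a gene is said to have fallen or risen only where it passed in both. The tissue label was matched by abundant late neutrophil transcripts, whose 12 markers summed to between 30969 and 91829 CPM (read counts scaled to a common library size with TMM factors) in every sample. Marker levels also differed between groups. The late neutrophil sum was 51865 to 81296 CPM in control, 30969 to 60159 in model and 60323 to 91829 in cornus. In model, 7 of the 12 markers fell in both fits, where 15.8% of all tested genes fell. The 12 B lineage markers summed to 1117 to 2526 CPM in control, 165 to 223 in model and 16 to 262 in cornus, and the 18 erythroid markers to 30498 to 116630, 884 to 15593 and 490 to 21884, with control 4 highest. The 5 primary granule markers summed to 2550 to 2998 CPM in control, 4383 to 7609 in model and 3771 to 6930 in cornus. Of 6 testis markers 1 was tested, and Prm2 and Tnp1 were at 0. In bulk RNA, fewer cells of a type and less RNA per cell cannot be told apart. The part of these cell type markers in the histone values was not tested.

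The comparison of model with control asks what CTX did to histone messages in marrow. H2bc6, an H2B gene of the chromosome 13 cluster (23767653 to 23805107, minus strand), fell in the model. It stood at 4.41, 4.56, 5.06 and 3.07 CPM in controls 1 to 4 and at 0.679, 1.85, 1.5 and 1.41 CPM in models 1 to 4. The groups did not overlap, with means of 4.27 ± 0.850 and 1.36 ± 0.492 CPM (SD, n = 4 each). The log2 change was -1.65 ± 0.30 (SE), with an edgeR adjusted p of 0.00111, and of 0.0140 with controls summed. H2bc6 overlaps the H1 gene H1f4 by 496 bases on the same strand, and H1f4 held 46 counts in all.

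Of the 9 tested histone genes, 3 were called lower in the model with the 4 controls as deposited, where 20.9% of all tested genes were called lower. With both fits required, 1 was called lower, against 15.8% of all tested genes, and none was called higher, against 23.2% with the controls as deposited and 17.7% in both fits. The groups did not overlap for 2 genes, both lower in model, against 20.8% of all tested genes lower and 23.3% higher. At an unadjusted edgeR p under 0.05 there were 4 of 9, against 52.9%. The median log2 difference of the 9 genes was -0.59, against 0.00 over all genes tested. That median and these counts rest on the genes with enough counts to pass the filter, and a gene can pass through the group where it is high.

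H2bc21, an H2B gene of the chromosome 3 cluster (96128435 to 96131054, plus strand), passed with 4 controls only. Its level was 17.2, 14.6, 15.4 and 17.0 CPM in controls 1 to 4 and 12.7, 13.7, 8.64 and 11 CPM in models 1 to 4, again without overlap. Its log2 difference was -0.48 ± 0.18, with an edgeR adjusted p of 0.0493, and of 0.122 with controls summed. H4c9, an H4 gene on chromosome 13 (22224806 to 22225532, minus strand), gave the same kind of result. It stood at 5.82, 6.27, 7.58 and 8.70 CPM in controls 1 to 4 and at 5.87, 3.50, 5.03 and 3.82 CPM in models 1 to 4, with model 1 inside the control range. Its log2 difference was -0.64 ± 0.23, with an edgeR adjusted p of 0.0426, and of 0.0746 with controls summed. The call of H2bc21 was lost without any 1 of the controls, models 1, 3 or 4, or cornus 2 or 3, and that of H4c9 without any 1 of controls 2 to 4, models 2 to 4, or cornus 1.

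The linker histone genes did not show one pattern. H1f2 (chromosome 13, 23922791 to 23924350, plus strand), a somatic linker histone made mainly in S phase, stood at 59.8, 58.9, 56.8 and 85.8 CPM in controls 1 to 4 and at 58.5, 26.7, 22.5 and 37.7 CPM in models 1 to 4. Control 4 stood above the rest and model 1 lay within the range of controls 1 to 3. The log2 difference was -0.84 ± 0.33, with an edgeR adjusted p of 0.0575. H1f0 (chromosome 15, 78912650 to 78914704, plus strand), the replacement linker histone of cells that stop dividing, was close to 73 CPM in each control and spread widely in the model. Its level was 73.2, 73.7, 72.9 and 73.9 CPM in controls 1 to 4 and 105, 54.2, 53.2 and 76.5 CPM in models 1 to 4. Its log2 difference was -0.02 ± 0.20, with a 95% interval of -0.45 to 0.41 and an edgeR adjusted p of 0.936.

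The ratio of deposited FPKM of H1f0 to H1f2 did not overlap between control and the other groups, while the CPM of each gene did. It was 0.929, 0.950, 0.974 and 0.654 in controls 1 to 4, 1.36, 1.54, 1.79 and 1.54 in models 1 to 4, and 2.74, 1.09, 2.48 and 0.993 in cornus samples 1 to 4. Every model and cornus sample lay above every control, with cornus 4 nearest to the controls. The ratio was chosen after values were seen and is given without a test.

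**Figure D3:**
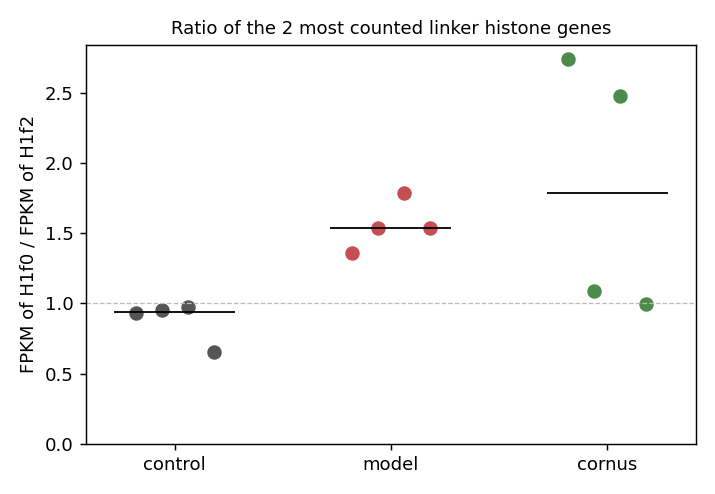
Ratio of the deposited FPKM of H1f0 to that of H1f2 in each sample (points) by group, with a line at each group's median. The controls lie between 0.654 and 0.974 and the model samples between 1.36 and 1.79, while the cornus samples spread from 0.993 to 2.74.

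The other tested genes did not pass in the model. H2bc4 (chromosome 13, 23868182 to 23876891, plus strand) stood at 4.10, 5.86, 3.50 and 6.27 CPM in controls 1 to 4 and at 4.14, 3.78, 3.26 and 2.01 CPM in models 1 to 4, with overlap (log2 difference -0.59 ± 0.32, edgeR adjusted p = 0.150). H2bc9 stood at 1.47, 0.888, 0.843 and 1.21 CPM in controls 1 to 4 and at 0.864, 0.481, 1.02 and 1.26 CPM in models 1 to 4. Its means were 1.10 ± 0.295 and 0.905 ± 0.325 CPM (SD, n = 4 each), with an edgeR adjusted p of 0.572. H1f3, at 0.735, 1.01, 0.713 and 0.856 CPM in controls 1 to 4 and 0.494, 0.618, 0.204 and 0.753 CPM in models 1 to 4, had an edgeR adjusted p of 0.197. The groups of these genes overlapped. H4c18, uncertain for its shared sequence, stood at 0.674, 0.651, 0.778 and 0.285 CPM in controls 1 to 4, at 0.679, 1.58, 0.952 and 0.251 CPM in models 1 to 4 and at 1.24, 2.30, 0.269 and 1.04 CPM in cornus samples 1 to 4. All 3 groups overlapped, and its log2 difference in model was 0.49 ± 0.62 with an edgeR adjusted p of 0.545.

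The comparison of cornus with control gave 3 genes that passed in both fits, all of them H2B genes. H2bc6, H2bc4 and H2bc21 fell, each without overlap between the groups. H2bc6 stood at 1.24, 2.01, 1.14 and 1.55 CPM in cornus samples 1 to 4, a log2 change of -1.52 ± 0.30 (edgeR adjusted p = 0.00190, and 0.0179 with controls summed). H2bc4 stood at 1.16, 3.31, 2.15 and 1.97 CPM, a log2 change of -1.19 ± 0.33 (edgeR adjusted p = 0.0109, and 0.0227 with controls summed). H2bc21 stood at 7.51, 11.4, 8.96 and 12.8 CPM, a log2 change of -0.65 ± 0.18 (edgeR adjusted p = 0.0124, and 0.0425 with controls summed). H2bc6, H2bc4 and H2bc21 were called in each of the 20 alternatives run.

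With the controls as deposited, 6 of the 9 tested histone genes were called lower in cornus, where 23.6% of all tested genes were called lower. With both fits required, 3 of 9 were called lower, against 19.7% of all tested genes, and none was called higher, against 24.0% with the controls as deposited and 18.6% in both fits. The groups did not overlap for 4 genes, all lower in cornus, against 24.4% of all tested genes lower and 24.2% higher. At an unadjusted edgeR p under 0.05 there were 7 of 9, against 55.1%. The median log2 difference of the 9 genes was -0.86, against -0.02 over all genes tested. These counts and that median rest on the genes with enough counts to pass the filter, and a gene can pass through the group where it is high. H1f3, 1 of the 4 without overlap, stood at 0.713 to 1.01 CPM in control and at 0.202 to 0.647 CPM in cornus. This comparison shares its control samples with that of model and control.

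The 3 further genes called with 4 controls were H4c9, H2bc9 and H1f2. H4c9 stood at 4.57, 6.19, 3.84 and 3.37 CPM in cornus samples 1 to 4 (log2 difference -0.66 ± 0.23, edgeR adjusted p = 0.0350, and 0.0595 with controls summed). H2bc9 (chromosome 13, 23725884 to 23727562, minus strand) stood at 0.310, 0.360, 0.875 and 0.518 CPM, with cornus 3 inside the control range (log2 difference -1.07 ± 0.39, edgeR adjusted p = 0.0402, and 0.0863 with controls summed). H1f2 stood at 24.4, 39.1, 22.3 and 57.4 CPM, with cornus 4 inside the control range (log2 difference -0.86 ± 0.33, edgeR adjusted p = 0.0498, and 0.0832 with controls summed). All 3 calls were lost without cornus 1 or without control 4. The call of H4c9 was also lost without control 3 or cornus 3 or 4, that of H2bc9 without control 1, model 1 or 3, or cornus 2 or 4, and that of H1f2 without controls 1, 2 or 3, model 2 or 4, or cornus 2 or 3. H1f3 did not overlap between the groups, at 0.387, 0.647, 0.202 and 0.518 CPM in cornus samples 1 to 4, and had an edgeR adjusted p of 0.0865. H1f0 stood at 88.0, 56.3, 72.9 and 75.1 CPM, with a log2 difference of -0.01 ± 0.20 and a 95% interval of -0.44 to 0.42.

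**Figure D4:**
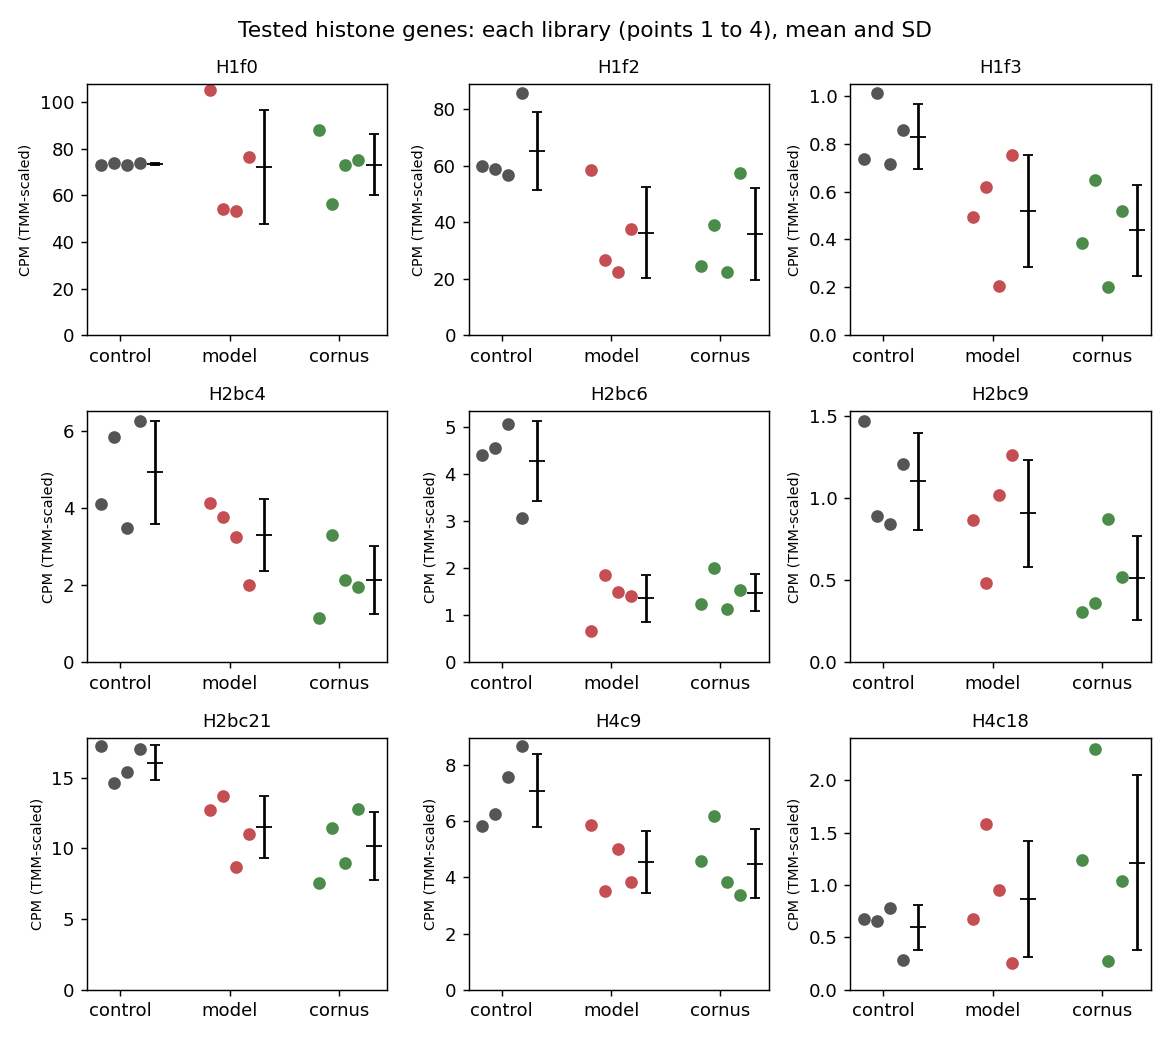
CPM of TMM-scaled counts of the 9 tested histone genes in each of 12 samples (points, samples 1 to 4 from left to right within a group), with the group mean and SD beside them. H2bc6 lies between 3.07 and 5.06 CPM in control and at or below 2.01 CPM in every model and cornus sample, while H1f0 has group means of 73.4, 72.3 and 73.1 CPM.

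The comparison of cornus with model asks whether the nanoparticle group differed from the CTX group. None of the 9 tested histone genes was called in either direction by edgeR, DESeq2 or limma, where edgeR called 0.0797% of all tested genes higher and 0.0717% lower. At an unadjusted edgeR p under 0.05 the count was also 0 of 9, against 20.8% of all genes tested. No gene had groups without overlap, against 6.05% of all tested genes higher and 7.45% lower. The difference of largest size was that of H2bc9, -0.80 ± 0.40 on the log2 scale with a 95% interval of -1.66 to 0.06 (edgeR adjusted p = 0.269). H2bc4 differed by -0.61 ± 0.33 (edgeR adjusted p = 0.308). For H2bc6 the interval was -0.54 to 0.81, for H2bc21 -0.57 to 0.22 and for H1f2 -0.75 to 0.71, and each interval spans both directions.

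**Figure D5:**
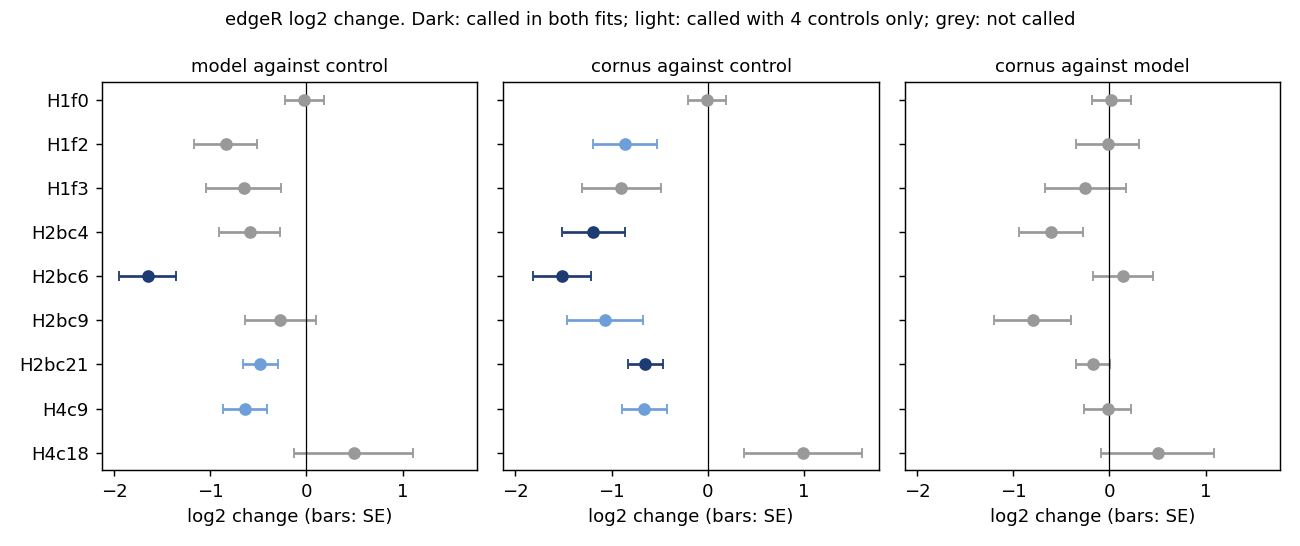
edgeR log2 difference and its SE (bars) of the 9 tested histone genes in each comparison, 4 samples a group. Dark points passed in both fits, light points passed with the 4 controls as deposited only and grey points did not pass, and all points of cornus against model are grey.

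Summed over all 69 genes, histone messages stood at 177, 174, 173 and 204 CPM in controls 1 to 4, at 197, 117, 103 and 142 CPM in models 1 to 4 and at 134, 130, 116 and 161 CPM in cornus samples 1 to 4. The log2 ratio of the group means was -0.38 for model against control, -0.43 for cornus against control and -0.05 for cornus against model. H1f0 held 13853 of the 28979 counts, and without it the ratios were -0.69 and -0.81 against control. The H2B genes were the most even sum in control, at 28.7 ± 1.0 CPM, against 20 ± 3.39 in model and 16.1 ± 3.38 in cornus (SD, n = 4 each). In the same order, the H1 sum was 141 ± 14.2, 110 ± 40.5 and 110 ± 17.9 CPM. Its groups overlapped, with model 1 at 165 CPM above the highest control, control 4 at 162 CPM. The H4 sum was 9.73 ± 1.27, 7.83 ± 1.19 and 7.86 ± 2.88 CPM. The H3 sum was 1.78 ± 0.306, 1.64 ± 0.437 and 0.932 ± 0.0647 CPM, and the H2A sum 0.611 ± 0.238, 0.469 ± 0.112 and 0.723 ± 0.512 CPM. These sums carry no test.

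Among genes below the filter, a few were uneven, and they were picked after their values were seen. H1f10, a replacement linker histone gene on chromosome 6 (87957403 to 87958619, minus strand), had 15, 4, 3 and 16 counts in controls 1 to 4, 1, 2, 2 and 1 in models 1 to 4 and 0 in each cornus sample. That is 6.61-fold lower in model than in control, with a 95% counting interval of 2.77 to 19.1, and at least 12.3-fold lower in cornus, taking 3 counts over the group as the floor. H1f4 had 25, 19 and 2 counts in control, model and cornus, a ratio of 12.2 between control and cornus with an interval of 3.03 to 106. Fitted with no filter, edgeR gave H1f10 an adjusted p of 0.0241 in model and 0.00262 in cornus, and H1f4 one of 0.00710 in cornus. H2bc8 had 21, 68 and 22 counts, of which model 2 alone held 42, and H4c17 had 8, 3 and 37, with 88.1% of its windows shared. H4c12 was uneven in the upward direction, with 10, 37 and 34 counts and every model sample above every control. It shared 64.3% of its windows, and edgeR with no filter gave it an adjusted p of 0.0732 in model and 0.0673 in cornus. The intervals and the floor pool the samples of a group and cover counting error only, so they leave out sample-to-sample spread. PCR copies of a molecule could also not be told from separate molecules.

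Genes of histone message production were called in both directions, at shares near or below those of all tested genes in model. Of 20 tested genes for histone transcription and 3' end processing, 4 rose and 2 fell in the model in both fits, where 17.7% of all tested genes rose and 15.8% fell, with a median log2 difference of 0.11. Casp8ap2, a factor of histone pre-mRNA cleavage, rose by 0.86 ± 0.10 on the log2 scale (edgeR adjusted p = 7.05e-05), and Npat, the coactivator of histone gene transcription, by 0.76 ± 0.09 (edgeR adjusted p = 7.51e-05). Cstf2, a cleavage stimulation factor subunit, rose by 0.62 ± 0.08, and Lsm10, a protein of the U7 particle, fell by 0.87 ± 0.16 (edgeR adjusted p = 0.000146 and 0.00122). Slbp, the stem-loop binding protein, which was picked after its values were seen, fell by 0.42 ± 0.16 in model (edgeR adjusted p = 0.0469, and 0.04 with controls summed) and fell by 0.55 ± 0.16 in cornus (edgeR adjusted p = 0.0139, and 0.0153 with controls summed). The Slbp call in model held in 10 of 20 alternatives and was lost without control 4, model 1, model 3 or any 1 of the cornus samples, while that in cornus held in all 20. In cornus against control, 6 genes of the list rose and 3 fell in both fits, where 18.6% of all tested genes rose and 19.7% fell.

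Of 9 tested genes for other histone variants, 5 fell in model and 5 in cornus in both fits, where 15.8% and 19.7% of all tested genes fell. None rose in either in both fits, and the median log2 differences were -0.47 and -0.38. Macroh2a1 and Macroh2a2, picked after their values were seen, were called higher in model with the 4 controls only. They differed by 0.25 ± 0.08 and 0.93 ± 0.30 (edgeR adjusted p = 0.0227 and 0.0256, and 0.123 and 0.0972 with controls summed). In model, H3f3a and H3f3b, which encode the replacement H3, fell by 0.76 ± 0.10 and 0.54 ± 0.10, H2az2, an H2A.Z gene, by 0.88 ± 0.16, and H2ax, whose product is phosphorylated at DNA breaks, by 0.99 ± 0.20 (edgeR adjusted p = 0.000167, 0.00122, 0.00111 and 0.00227). Those 4 calls held in all 20 alternatives. Control 4 again stood apart, with a summed variant level of 3856 CPM against 3070 to 3155 in controls 1 to 3, while the model and cornus samples lay between 2350 and 2663.

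Histone chaperones and S phase genes showed no single direction. Of 21 chaperone and assembly genes, 3 rose and 5 fell in model in both fits, where 17.7% of all tested genes rose and 15.8% fell, and 2 rose and 6 fell in cornus, where 18.6% rose and 19.7% fell. Atrx, a remodeller that deposits the replacement H3, rose by 1.07 ± 0.11 in model (edgeR adjusted p = 3.60e-05), Hjurp, the chaperone of centromeric H3, by 0.53 ± 0.09 and Supt16, a FACT subunit, by 0.41 ± 0.10 (edgeR adjusted p = 0.000907 and 0.00583). Mms22l differed by 0.38 ± 0.09 and passed with the 4 controls only. These 4 genes, named for the smallest p in model, all stood higher, and the 5 that fell were not among them. Of 20 S phase genes, 1 fell in model in both fits, Pcna, the replication clamp, by 0.47 ± 0.14 (edgeR adjusted p = 0.0166), and 2 fell in cornus, below the same shares of all tested genes that fell. In model against control, Cdc45, at 0.28 ± 0.09, passed with the 4 controls only, and Prim1 and Pola1 did not pass. In cornus against control, Pola1 differed by 0.45 ± 0.13 and passed with the 4 controls only (edgeR adjusted p = 0.0156, and 0.0899 with controls summed), a call also lost without cornus 2. The S phase genes summed to 3344 to 4643 CPM in control, 3169 to 4075 in model and 3045 to 3354 in cornus, again highest in control 4. None of these lists held a call in cornus against model.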

How the data were processed

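Histone genes were taken from the deposited table of 21958 genes by symbol, and the members and lists were chosen with earlier results of these data known. Per the labels' protocols, Trizol RNA went through poly-T bead selection and PCR amplification. Reads were processed with fastp 0.22.0, HISAT2 2.1.0 and HTSeq 0.9.1, per the submitters' processing notes. The genome build, annotation, strand setting and treatment of multiply mapped reads are not given in the sources used here. The deposited table holds whole-number read counts per gene and sample, FPKM made by the authors, and the authors' gene length, and the tests used the counts.

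The main test used edgeR 4.0.16 under R 4.3.3 (TMM, filterByExpr, quasi-likelihood F test, Benjamini-Hochberg adjusted p under 0.05), all 12 samples in 1 fit with group as the only term, over 12549 genes. Samples of a group are numbered in the labels, but same-numbered samples did not deviate together in all pairs (r from -0.135 to 0.45, with 7 of 12 pairs over 0.1), so no block was used. SE was obtained by dividing the size of the log2 change by the root of the F value, and 95% intervals used that SE with the total degrees of freedom of the F test. CPM are per TMM-scaled library. Alternatives were DESeq2 1.42.0 (its size factors and its test), limma 3.58.1 on log2 of FPKM plus 0.1, no filter, a filter of CPM 1 in 4 samples, a replicate block, 2-group fits, summed controls and each sample left out. The edgeR script was checked on simulated data. The text prints per-sample values for the 3 tested members of each histone type with the highest mean FPKM and the 5 tested members with the smallest p in each comparison, and names 4 genes of each other list. Genes outside these rules are marked as picked after their values were seen. Figures and sequence searches used Python 3.11.15.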

Additional observations from a re-analysis of the deposited data

Results flagged for a closer look

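In control 4, H1f2 stood at 85.8 CPM, apart from 59.8, 58.9 and 56.8 CPM in controls 1 to 3. The summed histone level of control 4, at 204 CPM, was apart from 177, 174 and 173 CPM in controls 1 to 3. These were the samples that stood apart by Dixon's criterion for 4 samples in 2 of 30 groups examined, and chance alone marks about 1 in 20 groups. The histone sum includes H1f2, so these 2 results are not independent. The rate of 1 in 20 also takes the 4 samples of a group as independent. Controls 1 to 3 lay closer to each other than other samples of a group. Erythroid markers summed to 116630 CPM in control 4 and to 30498 to 30985 CPM in controls 1 to 3, and the part of this in the histone values was not tested.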

How the results depend on the processing

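In model against control, 3 histone genes were called lower, against 1 by limma on FPKM, 1 with controls 1 to 3 summed, and 1 to 4 with each sample left out. In cornus against control, 6 were called lower, against 3 with controls summed and 3 to 5 with each sample left out. The counts called higher were 0 in both, and 0 to 1 with each sample left out. Without H1f0 the log2 ratios of the summed level were -0.69 (model against control) and -0.81 (cornus against control). The cause of these moves was not tested.

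Values near 0 changed sign without a call. For H1f0 these were model against control 0.01 by limma and -0.26 to 0.10 with each sample left out, cornus against model -0.06 by limma and -0.12 to 0.26, and cornus against control 0.00 with DESeq2 size factors, 0.00 by DESeq2's test, 0.01 with 2 groups in the fit and -0.11 to 0.09. In cornus against model, with each sample left out, H1f2 ranged from -0.35 to 0.32, H1f3 from -0.51 to 0.03, H2bc6 from -0.07 to 0.32, H4c9 from -0.23 to 0.13 and H4c18 from -0.01 to 0.97.

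Whether the replicate numbers pair the samples was left undecided, and 7 of 12 samples correlated best with their own number. With the replicate number as a block, 3 genes were called lower in model against control, 6 in cornus against control and 0 in cornus against model. Low counts limit what can be seen for most histone genes, and 60 of 69 were not tested.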
